A study of Homo sapiens with 3 samples.

Results

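Of the 106390 ATAC-seq peaks called on chromosomes 1 to 22 and X of hCMEC/D3 cells, 1876 lay within 1 kb of the ends of at least 2 protein-coding genes that do not overlap each other. These shared peaks were found by setting each peak against the gene extents of a RefSeq table of assembly GRCh38.p14, with an overlap of at least 1 bp with the 1 kb window on either side of a gene end. They made up 11.8% of the 15865 peaks at ends of protein-coding genes. A further 13301 peaks lay at an end of exactly 1 protein-coding gene, called single-gene peaks here, and 688 lay at ends of several genes that all overlap. The cells are an immortalized line of human brain microvascular endothelium, the lining of the small vessels of the brain, and the labels name no treatment. The labels say that the cells were confluent and kept on collagen. The series holds 1 ATAC library, numbered replicate 2, and 2 RNA libraries. The RNA tables list transcripts without genes and were not used. With 1 library and no second group, no test between conditions exists and peaks are not replicates, so all differences below are descriptions of this library.

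In the human genome many protein-coding genes lie with their starts back to back on opposite strands, and the short stretch between them serves both as a bidirectional promoter. ATAC-seq reads accumulate where nucleosomes are displaced, which is typical of active promoters. Genes can also follow each other on the same strand, so that the end of the upstream gene adjoins the start of the next, or meet at their far ends. Bidirectional promoters are usually rich in CG dinucleotides, poor in TATA boxes and frequent among housekeeping genes.

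The gene table gives no strand, but a companion RefSeq table of promoter windows does, for 15811 of the 19970 protein-coding genes on these chromosomes. Of the 1876 peaks, 802 joined genes head to head (start to start), 443 head to tail (the end of 1 gene beside the start of the next) and 104 tail to tail. A further 41 had pairs of several kinds, where a pair without known strands counts as a kind. The other 486 had only pairs in which the strand of at least 1 gene is not known. Orientation was read from the strands and order of the genes, without checking which of their ends the peak met. A peak may thus also lie at ends that do not face each other. The 1876 peaks stood at 1935 gene pairs and 3532 genes, 17.7% of all protein-coding genes. Most of them, 1768 peaks, reached 2 genes, 104 reached 3, 3 reached 4, and 1 reached 23.

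Promoter windows of RefSeq (GRCh38.p14), 250 bases before to 50 after the annotated start, are shown for 1 gene of each of 6 well-known head to head pairs and for both genes of a histone pair, because all of them lie inside a shared peak and the histone windows differ in composition from the rest. Capitals mark letters of any of 8 motifs on either strand: the GC box GGGCGG, the CCAAT box CCAAT, the ETS motif CCGGAAG, the E-box CACGTG, the YY1 motif AAGATGG, the NRF1 motif, the cAMP response element TGACGTCA and the TATA box TATAAA. None of these motifs contains another. Each sequence runs 5′ to 3′ on the strand of its gene.
HSPE1, chr2:197500129-197500428, plus strand: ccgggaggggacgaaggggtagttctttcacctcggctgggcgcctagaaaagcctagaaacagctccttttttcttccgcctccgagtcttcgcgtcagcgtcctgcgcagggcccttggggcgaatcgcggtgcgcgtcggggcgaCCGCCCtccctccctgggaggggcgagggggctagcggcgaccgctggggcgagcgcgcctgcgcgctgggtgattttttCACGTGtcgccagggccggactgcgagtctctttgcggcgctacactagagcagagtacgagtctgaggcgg
COL4A2, chr13:110307034-110307333, plus strand: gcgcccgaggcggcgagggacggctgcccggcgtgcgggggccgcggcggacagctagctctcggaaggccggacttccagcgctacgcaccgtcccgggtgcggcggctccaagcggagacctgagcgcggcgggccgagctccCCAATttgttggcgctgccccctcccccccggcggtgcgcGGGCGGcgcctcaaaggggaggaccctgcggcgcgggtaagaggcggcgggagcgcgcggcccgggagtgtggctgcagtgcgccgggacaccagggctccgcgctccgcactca
ATM, chr11:108222817-108223116, plus strand: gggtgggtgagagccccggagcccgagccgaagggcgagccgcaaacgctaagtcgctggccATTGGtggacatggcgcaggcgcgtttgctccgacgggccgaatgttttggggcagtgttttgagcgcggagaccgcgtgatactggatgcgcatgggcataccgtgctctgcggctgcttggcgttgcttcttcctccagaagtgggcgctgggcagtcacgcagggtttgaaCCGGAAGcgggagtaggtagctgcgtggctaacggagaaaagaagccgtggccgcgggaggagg
PDCD10, chr3:167734843-167735142, minus strand: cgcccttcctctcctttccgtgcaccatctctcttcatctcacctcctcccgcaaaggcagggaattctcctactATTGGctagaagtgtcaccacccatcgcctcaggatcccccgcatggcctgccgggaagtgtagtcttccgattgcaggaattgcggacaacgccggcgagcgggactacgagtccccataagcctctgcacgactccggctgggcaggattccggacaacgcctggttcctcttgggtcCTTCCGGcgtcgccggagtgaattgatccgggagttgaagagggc
MRPS12, chr19:38930694-38930993, plus strand: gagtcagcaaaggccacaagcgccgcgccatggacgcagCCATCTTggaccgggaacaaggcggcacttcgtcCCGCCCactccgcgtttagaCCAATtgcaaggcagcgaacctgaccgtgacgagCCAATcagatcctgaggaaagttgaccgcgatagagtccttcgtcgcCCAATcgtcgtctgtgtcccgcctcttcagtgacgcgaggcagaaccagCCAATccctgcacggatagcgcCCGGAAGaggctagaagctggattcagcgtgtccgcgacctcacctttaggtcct
COX4I1, chr16:85799445-85799744, plus strand: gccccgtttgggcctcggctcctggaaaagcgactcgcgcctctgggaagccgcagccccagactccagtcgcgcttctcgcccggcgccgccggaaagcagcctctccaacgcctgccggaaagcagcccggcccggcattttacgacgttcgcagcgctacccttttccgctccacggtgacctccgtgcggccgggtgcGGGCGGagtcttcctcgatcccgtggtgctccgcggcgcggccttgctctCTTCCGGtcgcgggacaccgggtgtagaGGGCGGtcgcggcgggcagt
H2BC4, chr6:26123877-26124176, minus strand: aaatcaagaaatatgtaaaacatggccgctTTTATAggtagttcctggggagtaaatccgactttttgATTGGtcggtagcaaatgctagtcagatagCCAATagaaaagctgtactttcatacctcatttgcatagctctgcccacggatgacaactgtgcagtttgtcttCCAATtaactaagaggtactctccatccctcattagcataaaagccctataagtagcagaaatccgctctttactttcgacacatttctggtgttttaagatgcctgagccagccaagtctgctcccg
H2AC6, chr6:26123922-26124221, plus strand: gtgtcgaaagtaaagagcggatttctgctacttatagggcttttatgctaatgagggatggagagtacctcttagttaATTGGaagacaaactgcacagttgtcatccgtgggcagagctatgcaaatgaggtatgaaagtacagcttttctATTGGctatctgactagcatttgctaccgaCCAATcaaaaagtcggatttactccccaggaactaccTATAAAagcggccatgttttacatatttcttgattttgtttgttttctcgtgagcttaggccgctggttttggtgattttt

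The gaps between facing starts were short enough that a window often reached into that of the partner. The HSPE1 window shared 204 bases with that of HSPD1, the COL4A2 window 226 bases with that of COL4A1, and the MRPS12 window 280 bases with that of SARS2. The H2BC4 and H2AC6 windows shared 255 bases. For ATM and NPAT the overlap was 72 bases, and for PDCD10 and SERPINI1, 828 bp apart, it was 0. Of the bases of the COL4A2 window 77.7% were C or G, compared with 42.3% for H2BC4 and 41.0% for H2AC6. The histone windows held 7 and 8 CG dinucleotides, compared with 45 in the COL4A2 window.

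A list of 17 pairs known as divergent or close neighbours, written with earlier results of these data known, held 14 pairs whose extents do not overlap in the gene table. All 14 had a shared peak, and in all 14 the peak covered both facing gene ends. Among all close pairs, with at most 2 kb between facing ends, 94.7% of 857 head to head pairs had a shared peak. Of 894 close pairs without known strands it was 53.1%. For 92.9% of 821 head to head pairs with a shared peak, the peak covered both facing ends. The 14 pairs are thus close to what head to head pairs show in general. Peak lengths were 615 to 2965 bp (median 1453.5) and pileups 9.15 to 104.18 tags (median 55.8). Pileup is the number of stacked tags that the peak caller reports for a peak, averaged over a broad region. The remaining 3 pairs overlap in this table and fall outside the rule.

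**Figure D1:**
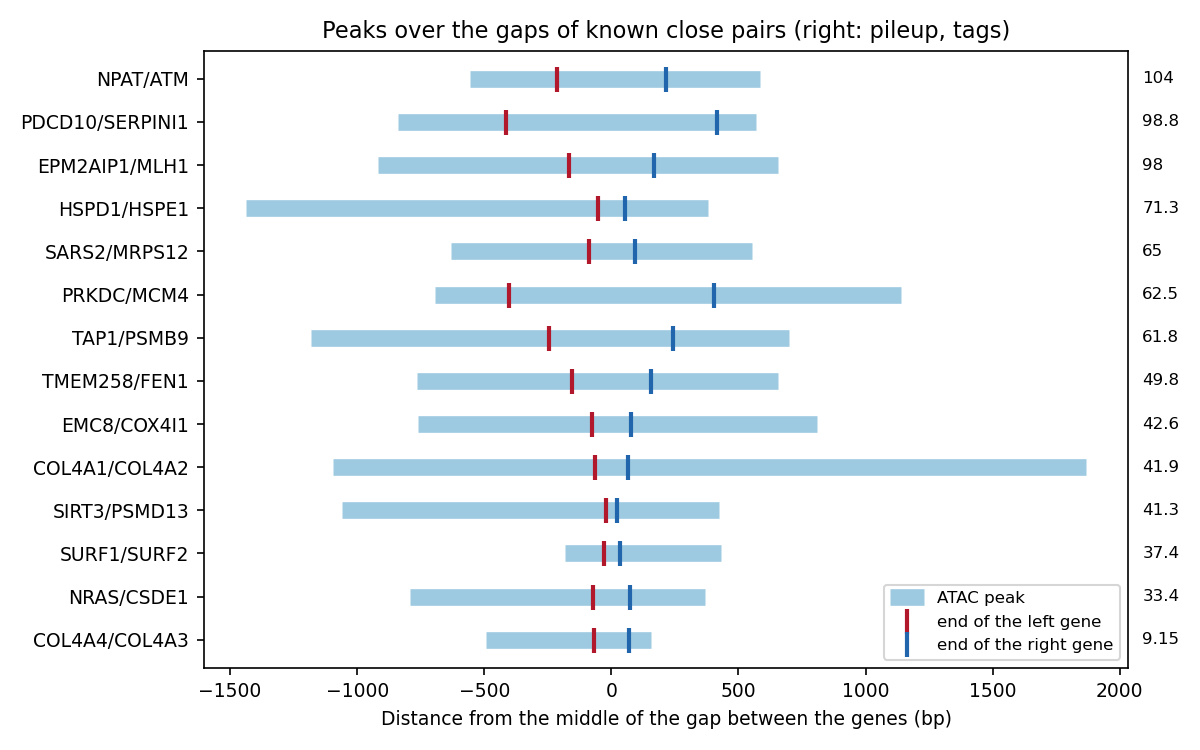
Peaks of 14 close gene pairs, drawn as distance in bp from the middle of the gap between the facing gene ends; bars are peaks, red and blue ticks are the facing ends of the left and right gene, and numbers at the right are pileup in tags. Each bar spans both ticks, from NPAT/ATM at 104 tags to COL4A4/COL4A3 at 9.15 tags.

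ATM, the kinase that signals DNA double-strand breaks, and NPAT, an activator of histone gene transcription, faced each other over 428 bp. Their peak on chromosome 11, from 108222297 to 108223435, reached 104.18 tags, with a fold of 6.22 over the local background. PDCD10, mutated in familial cerebral cavernous malformation and thus of interest in brain vessels, shared a peak of 1411 bp and 98.8 tags with SERPINI1, which encodes the neuronal inhibitor neuroserpin. This peak lay on chromosome 3 from 167734466 to 167735876.

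HSPD1 and HSPE1, the mitochondrial chaperonin and its co-chaperonin, shared a peak of 1820 bp with 71.3 tags on chromosome 2 from 197498887 to 197500706. SARS2 and MRPS12, a mitochondrial tRNA synthetase and a mitochondrial ribosomal protein, shared 1184 bp with 65.0 tags on chromosome 19 from 38930222 to 38931405.

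The type IV collagens, which build basement membranes, gave the longest and the shortest peak among the known pairs with known strands, all of them head to head. COL4A1/COL4A2, the chains of the basement membrane of vessels, had a peak of 2965 bp on chromosome 13 from 110306125 to 110309089, with 41.9 tags and a fold of 2.47. COL4A3/COL4A4, chains best known from the kidney glomerulus, had 651 bp on chromosome 2 from 227164062 to 227164712, with 9.15 tags and a fold of 3.01. The gaps were alike, 126 and 135 bp, so the starts stood a similar distance apart under peaks of unlike length.

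Shared peaks were longer and higher than single-gene peaks. The shared peaks had a median length of 1124.5 bp (quartiles 833 and 1435 bp) and the single-gene peaks of 911 bp (527 and 1248 bp). Median pileup was 50.5 tags (quartiles 36.8 and 65.0) and 38.1 tags (22.3 and 53.6). On all 23 chromosomes the shared peaks had the higher median of length and the higher median of pileup. A length of at least 1000 bp was reached by 1152 shared peaks (61.4%) and by 42.6% of single-gene peaks, with 12.7% of all peaks as the background. A pileup of at least 50 tags was reached by 51.1% and 30.1%, with a background of 12.1%. The median fold was 4.85 and 4.69, a difference that turned round in 4 of the settings listed in the closing section, and the median local background was 9.47 and 6.85 tags. Local background thus moved with pileup, and its part in the pileup difference was not tested. Fold is the authors' value for each peak.

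A longer peak reaches more gene ends, so length is tied to the rule, and the part of this in the length difference was not tested beyond the values that follow. When only the centre of a peak had to lie within 1 kb, the length ratio of shared over single-gene peaks was 1.21, compared with 1.23. Within bands of equal length the pileup ratio was 1.31 for peaks of 200 to under 500 bp, 1.26 for 500 to under 1000 bp, 1.18 for 1000 to under 1500 bp and 1.14 for 1500 bp or longer. Pileup was thus higher for shared peaks in each band, by less in the longer bands.

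The shared peaks differed by orientation. For head to head peaks the median was 1184 bp in length and 55.4 tags in pileup. Head to tail peaks had 1088 bp and 48.7 tags. Tail to tail peaks had 527 bp and 28.3 tags. Single-gene peaks at the annotated start of their gene had 1007 bp and 42.7 tags (8608 peaks), and those at the other end 456 bp and 22.8 tags (1902 peaks). Head to head peaks thus exceeded single-gene peaks at a start 1.18-fold in median length and 1.30-fold in median pileup. The tail to tail peaks lay between the single-gene peaks at starts and those at other ends in both measures.

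**Figure D2:**
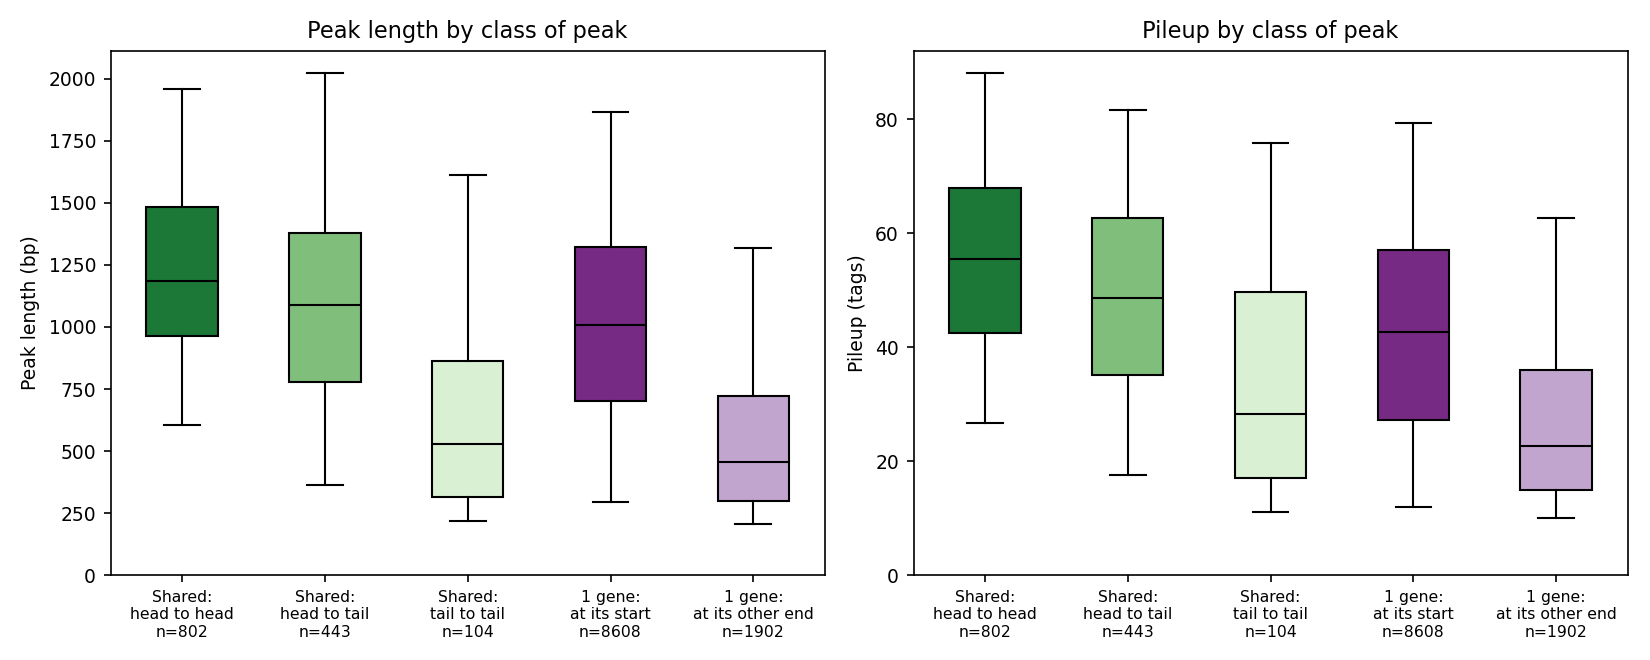
Peak length in bp (left) and pileup in tags (right) for shared peaks by orientation and for single-gene peaks at the start or the other end; boxes are quartiles with the median, and whiskers the 5th and 95th percentiles. Head to head peaks have the highest medians, 1184 bp and 55.4 tags, and single-gene peaks at other ends the lowest, 456 bp and 22.8 tags.

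Many single-gene peaks are single only with regard to protein-coding genes. Of the single-gene peaks 19.9% also lay within 1 kb of an end of a long noncoding RNA gene, compared with 8.16% of shared peaks and 7.69% of all peaks. At 1011 single-gene peaks the coding start faced the start of a long noncoding RNA on the other strand. Those peaks had a median of 1147 bp and 49.5 tags. These medians lay between those of coding head to head pairs, 1184 bp and 55.4 tags, and those of the other 7597 single-gene peaks at starts, 988 bp and 41.8 tags.

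The peaks covered the gaps themselves in head to head pairs. For 763 of 821 head to head pairs (92.9%) the peak of highest pileup spanned both facing ends, compared with 27.7% of 477 head to tail pairs and 7.97% of 138 tail to tail pairs. The median gap was 179 bp head to head (quartiles 103 and 304 bp), 707 bp head to tail and 722 bp tail to tail. These shares thus mix orientation with gap. At gaps under 100 bp the share was 99.5% head to head and 72.2% of 18 head to tail pairs. At 100 to under 250 bp it was 96.6% and 76% of 50. At 250 to under 500 bp it was 93.4% and 48.6%, and at 500 to under 1000 bp 73.3% and 13.3%. Tail to tail it was 20% or less in each of these bands. Head to head and head to tail pairs thus differed less at narrow gaps. A peak counts here once for each of its pairs. The 1 peak of 22 gamma protocadherin genes beside DIAPH1, over a gap of 2045 bp, thus enters the tail to tail pairs many times. It covers 1 of the facing ends, and it weighs on the tail to tail share and median gap. The centre of the peak lay a median of 144 bp from the middle of the gap in 777 head to head peaks with a single pair. Of 433 such head to tail peaks, 374 (86.4%) had their centre nearer to the start of the downstream gene than to the end of the upstream gene.

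In head to head pairs the median peak length was greater at wider gaps. Head to head pairs with gaps under 100 bp had a median of 1110 bp and 45.3 tags, those of 100 to under 250 bp had 1163 bp and 57.6 tags, and those of 250 to under 500 bp had 1294 bp and 62.6 tags. At gaps of 500 to under 1000 bp the values were 1343 bp and 60.2 tags, over 60 pairs. The lowest pileup of these 4 bands was thus at the narrowest gaps. In head to tail pairs the median length followed no such order, with 1260, 1133.5, 1067 and 1068 bp in the same bands, nor did it in tail to tail pairs, with 468, 753, 439 and 567.5 bp.

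The second gene end lay inside the peak for 1136 of the 1876 peaks (60.6%), and these had a median of 1234 bp and 55.3 tags. At the threshold, 74 members with the second end over 900 and up to 1000 bp away had a median of 769.5 bp and 42.5 tags. Just outside, 87 peaks with the second end over 1000 and up to 1100 bp away had 739 bp and 40.1 tags.

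To see how often close genes share a peak at all, every pair of neighbouring protein-coding genes with at most 2 kb between their facing ends was counted. Of 3037 such pairs, 1832 had a shared peak (60.3%, 95% Wilson interval 58.6% to 62.0%). By orientation it was 812 of 857 head to head pairs (94.7%, 93.0% to 96.1%), 439 of 736 head to tail pairs (59.6%, 56.1% to 63.1%) and 106 of 550 tail to tail pairs (19.3%, 16.2% to 22.8%). The intervals cover counting over pairs only. Below a gap of 1000 bp the head to head share stayed at 96.6% or more, and at gaps of 1000 to 2000 bp it was 54.0% of 50 pairs. The head to tail share was 75.3%, 82.7%, 74.6% and 37.6% in the same 4 bands of gap, and the tail to tail share went from 27.3% to 14.1%. In the widest band the rule itself makes a shared peak harder to reach, since the peak must meet both windows. Below a gap of 1000 bp, a peak over either facing end lies within 1 kb of the other and always counts as shared. The shares in those bands thus include pairs with a peak over only 1 facing end. A pair counted as without a shared peak may still have a peak within 1 kb of 1 end, or separate peaks near its ends. In those bands none of these lies over a facing end. Head to head pairs made up 40.0% of the 2143 close pairs with known strands and 59.8% of the 1357 of these with a shared peak.

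**Figure D3:**
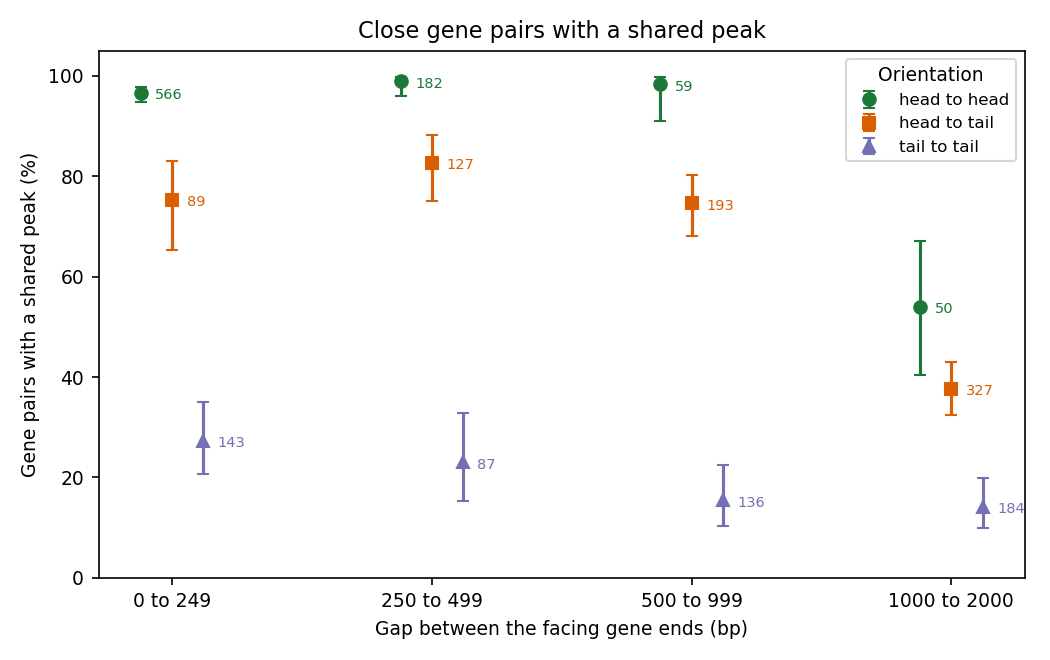
Share in percent of neighbouring gene pairs with a shared peak, by the gap between facing ends in bp and by orientation; bars are 95% Wilson intervals over pairs and numbers beside the points are pairs. Head to head pairs lie at 96.6% or more for gaps under 1000 bp and tail to tail pairs at 27.3% or below throughout.

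Histone genes held the 4 longest shared peaks. In order they were H2BC3/H3C3 on chromosome 6 (3528 bp, 58.6 tags), H3C14/H2AC18 (3453 bp, 71.5 tags), H2AC19/H3C15 (3427 bp, 66.1 tags) and H2BC21/H2AC20/H2AC21 (3306 bp, 74.5 tags), all 3 on chromosome 1, and then COL4A1/COL4A2. H3C14/H2AC18 and H2AC19/H3C15 lie in a duplicated stretch of near-identical copies, so the reads behind these peaks cannot be assigned to a copy with certainty. The folds of the 4 histone peaks were 2.70, 2.51, 2.46 and 2.71, below the median of shared peaks, over local backgrounds of 21.0 to 27.9 tags.

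The highest pileup was at KHSRP/SLC25A41 on chromosome 19 from 6424700 to 6425708, 137.75 tags over 1009 bp. KHSRP encodes an RNA-binding splicing regulator and SLC25A41 a mitochondrial carrier. Next came RRAS/SCAF1 with 134.32 tags, where RRAS encodes a small GTPase, and LRCH4/FBXO24 with 128.76 tags. CDCA3/USP5, a cell cycle gene beside a deubiquitinase, had 121.51 tags, and TLN1/CREB3, the adhesion protein talin beside a transcription factor, had 115.99 tags. Of these 5, the last 3 were head to head and the first 2 had no strand for both genes.

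The highest folds belonged to short peaks. HARS2/ZMAT2 on chromosome 5 from 140700076 to 140700586 had a fold of 11.6 over 511 bp, XAB2/STXBP2/PET100 on chromosome 19 had 10.9 over 538 bp, and GOLPH3L/HORMAD1 on chromosome 1 had 10.5 over 622 bp. GSTM4/GSTM2, neighbouring glutathione transferases with closely related sequences, had 10.4, and BCAS2/DENND2C had 10.1. At the lower end stood TSNAXIP1/CENPT with 8.02 tags and LOC124904708/ZNF540 with 8.43, close to the lowest pileup called in the whole list, 8.0 tags.

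The peak with 23 genes covered the common far end of 22 gamma protocadherin genes, which share their last exons, beside DIAPH1, a regulator of actin filaments. It was 1719 bp long with 26.1 tags. Peaks with 4 genes stood at MKKS/LOC128706665/LOC128706666/SLX4IP (53.2 tags), MMP24/MMP24-AS1-EDEM2/MMP24OS/EIF6 (43.5 tags) and PPAN/EIF3G/PPAN-P2RY11/P2RY11 (25.6 tags). Some of these names are read-through or overlapping entries of the gene table. Among peaks with 3 genes, CAB39L/SETDB2-PHF11/SETDB2 had the highest pileup, 109.25 tags.

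Gene families were set side by side by symbol, with lists written with earlier results of these data known and described by counts alone. Over all protein-coding genes 17.7% were at a shared peak and 26.4% had a coding neighbour within 2 kb. Of the genes with such a neighbour 64.9% were at a shared peak. Unless stated otherwise, the peaks named for a family are among its 2 of highest pileup and do not stand for the family. Median pileup was 51.0 tags for complex I, 51.5 for the mitochondrial and 52.95 for the cytosolic ribosome. It was 53.3 for solute carriers, 47.96 for zinc fingers, 57.6 for RNA polymerases and 58.5 for tRNA synthetases, beside 50.5 for all shared peaks.

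Replication-dependent histones, which package newly copied DNA, led with 48 of 73 genes (65.8%), and 72.6% had a close neighbour. The 26 peaks spanned 490 to 3528 bp, the median being 1899 bp, with medians of 62.3 tags for pileup and 18.95 tags for local background, and 18 of them lay on chromosome 6. Of 12 pairs of an H2A and an H2B gene with a shared peak, 10 had starts known to face each other, over gaps of 193 to 247 bp. In all 10 the peak covered both starts. Over all head to head pairs with a shared peak and gaps of 100 to under 250 bp, that share was 96.6%. H2BC4/H2AC6, whose windows are printed earlier, had the highest pileup of the 10 histone pairs, 77.1 tags over 1765 bp on chromosome 6 from 26122842 to 26124606. H2AC17/H2BC17 had 75.5 tags over 888 bp.

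RNA polymerase subunits (17 of 33 genes, 51.5%) and complex I of the respiratory chain (23 of 46, 50%) followed. NDUFA11/VMAC on chromosome 19, head to head over 1081 bp, had 104.55 tags, and WDR4/NDUFV3 on chromosome 21 had 73.9 tags. For the polymerases, PPP1R13L/POLR1G/ERCC1 had 77.8 tags and POLR2I/OVOL3/TBCB had 77.5 tags.

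Of 75 DNA repair genes 37 (49.3%) were at a shared peak, at 39 peaks of which 24 were head to head. The median over these 39 peaks was 1154 bp and 62.5 tags, and pileup ran from 13.5 to 105.61 tags. MBD4/IFT122, a DNA glycosylase beside a ciliary transport protein, had the highest at 105.61 tags on chromosome 3 from 129439593 to 129440728. The following pairs were picked after their values were seen. CHEK2/HSCB, a checkpoint kinase beside a chaperone of iron-sulfur cluster assembly, had 89.0 tags, and UQCC6/TDG had 85.4. MRE11/C11orf97 had 13.5 tags, the lowest of the list. PMS2 stood at 2 shared peaks, with AIMP2 at its start (71.0 tags) and with RSPH10B at its other end (14.3 tags), where near-identical copies exist.

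Of the mitochondrial ribosome 34 of 77 genes (44.2%) were at a shared peak. TCP1/MRPL18 on chromosome 6 had 81.1 tags over 2071 bp and MRPL50/ZNF189 on chromosome 9 had 80.9 tags over 774 bp. The tRNA synthetases stood at 13 of 35 genes (37.1%), among them EARS2/UBFD1 with 77.1 tags and HARS1/HARS2, paired copies for the cytosol and the mitochondrion, with 72.0 tags over a gap of 84 bp. Cytosolic ribosomal protein genes reached 29 of 86 (33.7%), with 89.7 tags at RPL18/SPHK2 and 89.6 tags at RPL41/ZC3H10. Cilia transport genes reached 8 of 26 (30.8%), including IFT140/CRAMP1 with 79.6 tags. Proteasome genes reached 10 of 40 (25%), with 78.7 tags at HPD/PSMD9 and 63.8 tags at SORT1/PSMA5.

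Below the share of all genes were solute carriers (52 of 398, 13.1%), zinc fingers (61 of 545, 11.2%), olfactory receptors (3 of 392, 0.765%) and keratins with keratin-associated proteins (0 of 149). Among solute carriers CDK5/SLC4A2 had 88.7 tags, and ZSCAN32/ZNF174 had 87.5 tags among zinc fingers. OR4E2/OR4E1 and NLRP3/OR2B11, both tail to tail, had 34.6 and 15.9 tags. Protocadherins counted 22 of 65 genes, all through the 1 peak beside DIAPH1. Of the keratins, 0 had a coding neighbour within 2 kb.

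The families also differed in how often their members have a coding neighbour within 2 kb. That share was 54.5% for the polymerases, 58.7% for complex I, 60.0% for DNA repair and 57.1% for the mitochondrial ribosome, compared with 23.6% for solute carriers and 17.1% for zinc fingers. Among genes with a close neighbour, 64.9% of all protein-coding genes were at a shared peak. Higher shares were 100% of 8 cilia transport genes, 94.4% of polymerases, 90.6% of histones and 82.9% of the cytosolic ribosome. Complex I had 81.5%, DNA repair 80.0%, the mitochondrial ribosome 77.3% and tRNA synthetases 72.2%. Lower shares were 63.4% of zinc fingers, 58.8% of the proteasome, 54.3% of solute carriers, 13.0% of olfactory receptors and 0% of protocadherins.

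**Figure D4:**
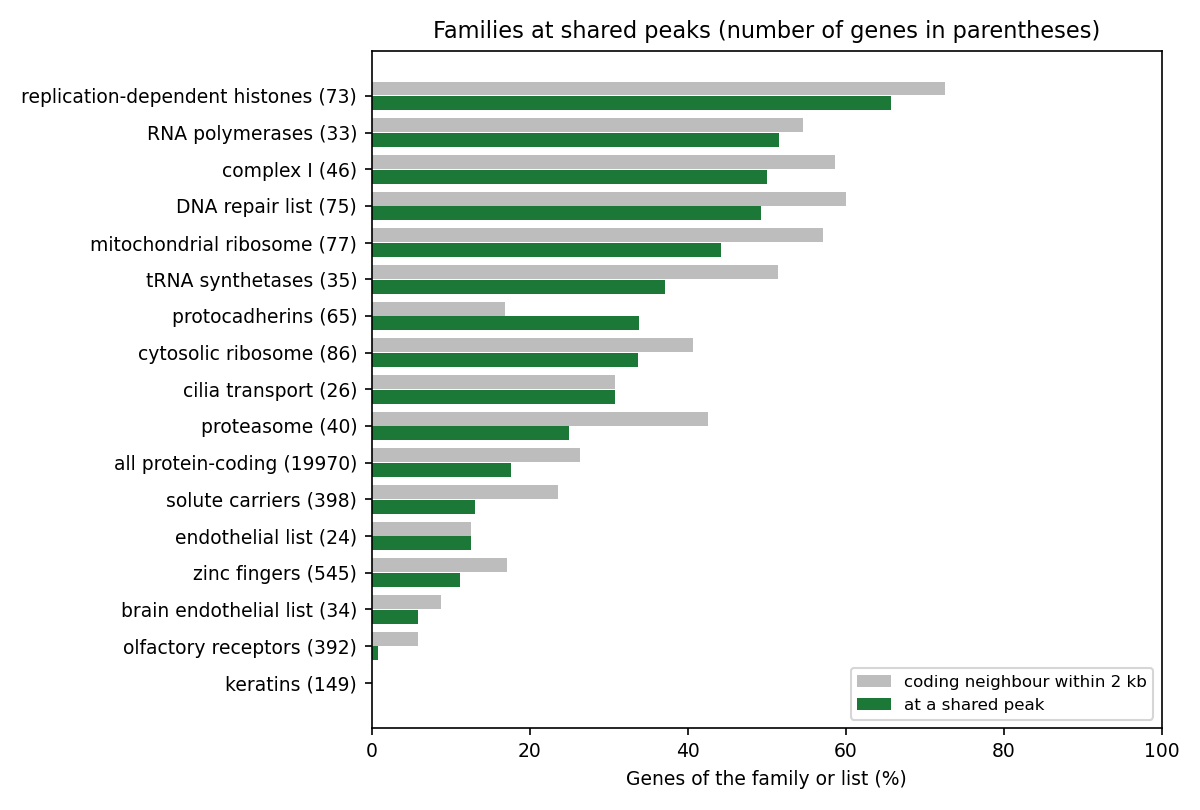
Percent of genes in each family or list with a coding neighbour within 2 kb (grey) and at a shared peak (green), with the number of genes in parentheses. Histones are highest at 65.8% and keratins are at 0. Protocadherins exceed their grey bar because the 22 genes at the 1 shared peak lie 2045 bp from DIAPH1, beyond the 2 kb limit.

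Of 24 endothelial markers 3 (12.5%) were at shared peaks, beside 17.7% of all protein-coding genes, and 20 had single-gene peaks only. A coding neighbour within 2 kb was present for 12.5% of these markers and 8.82% of the brain endothelial genes, compared with 26.4% of all genes. In both lists 66.7% of the genes with such a neighbour, 2 of 3, were at a shared peak. All 3 peaks of endothelial markers were tail to tail, and 1 of the 24 markers had no end peak. ROBO4, a guidance receptor of vessels, met ROBO3 at a peak of 784 bp and 19.2 tags. ENG, the TGF-beta co-receptor endoglin, met FPGS at 479 bp and 19.4 tags. EGFL7, a factor secreted by endothelium, met AGPAT2 at a peak of 2245 bp and 75.0 tags with a fold of 1.87, over a local background of 39.7 tags, the highest of all shared peaks. Of 34 brain endothelial genes 2 (5.88%) were at shared peaks, both coding for proteins of tricellular junctions. LSR stood with USF2 head to tail at 27.1 tags, and MARVELD2 with RAD17 head to tail at 35.1 tags.

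Sequence composition was not used by the rule and was described over the promoter windows, 1 per gene. Head to head genes at shared peaks (1616 windows) were set beside genes with a single-gene peak at the start (8061) and genes without an end peak (3988). The 8061 leave out head to head genes and downstream head to tail genes at shared peaks. Genes at other kinds of shared peak were not removed from them. Median C plus G content was 64.7%, 65.7% and 51.7%. The observed over expected ratio of CG had medians of 0.877, 0.826 and 0.288. Genes with either kind of peak were thus alike in C plus G, and both stood apart from genes without a peak.

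The ETS motif was the one with the widest gap between the peak classes. It was in 28.8% of head to head windows, 24.1% of windows of downstream head to tail genes, 15.8% of single-gene windows and 3.41% of windows without an end peak. Of 27194 windows, 1 per gene and with noncoding genes among them, 10.6% held it. These are called all windows here. Over the 15811 windows of protein-coding genes it was 14.1%. The CCAAT box was in 42.6% of head to head and 35.5% of single-gene windows (35.7% of all windows). The GC box was in 72.6% and 69.9% (44.6% of all), YY1 in 9.72% and 6.50% (6.03%), NRF1 in 3.47% and 2.03% (1.37%), the cAMP response element in 3.40% and 3.20% (1.97%), and the E-box in 11.2% and 9.51% (7.42%). The TATA box was in 4.21% and 6.35%, with 12.03% of all windows and 19.7% of windows without an end peak. Facing windows share bases, so the shares were also taken over 1 gene of each head to head pair, with 29.4% for ETS and 4.34% for TATA. A match of letters is a description of the window and not a bound site.

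Histone genes at shared peaks had windows of another kind. Of 44 such windows 97.7% held a CCAAT box, 68.2% a TATA box, 20.5% a GC box and 2.27% an ETS motif, at a median C plus G content of 42.2%. The H2BC4 and H2AC6 windows printed earlier each held 3 CCAAT boxes and 1 TATA box. They share 255 bases, read on opposite strands, and these are the same sites seen from both genes. Facing histone windows thus count the same sites more than once, and the shares of the 44 windows were not taken over 1 gene of each pair.

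**Figure D5:**
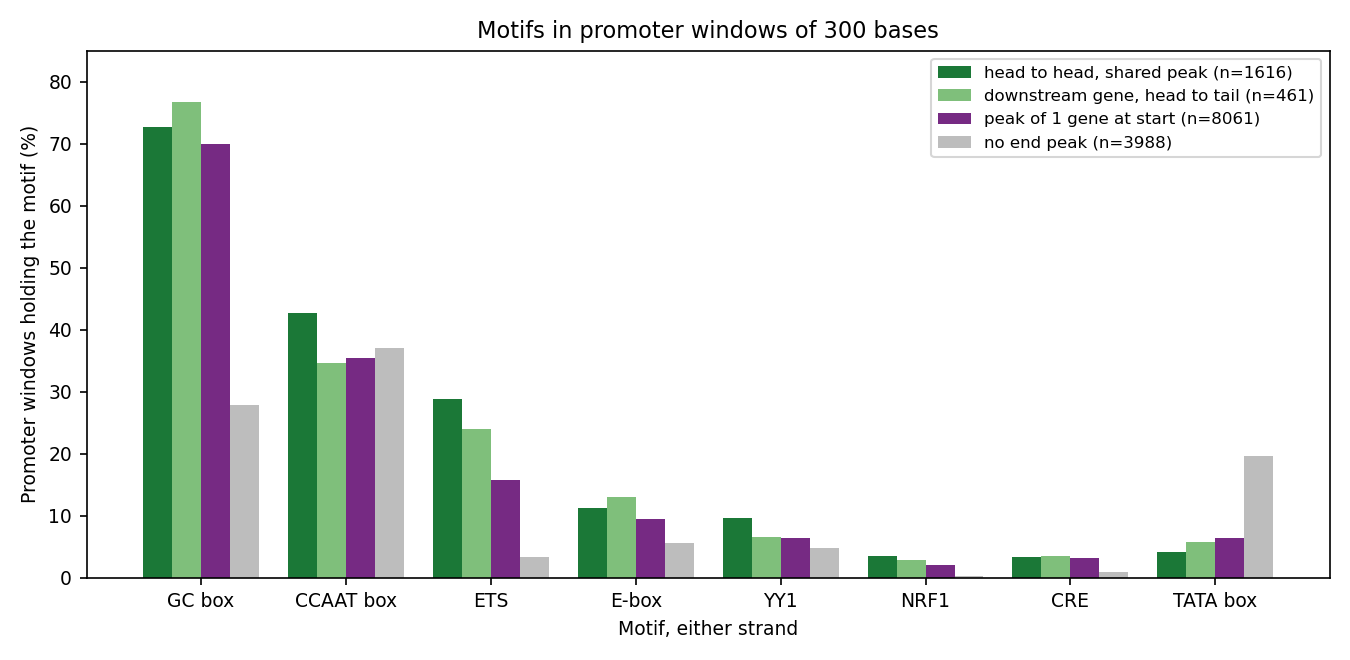
Percent of promoter windows of 300 bases that hold each motif on either strand, for head to head genes at shared peaks, downstream genes of head to tail pairs at shared peaks, genes with a single-gene peak at the start and genes without an end peak. ETS runs from 28.8% to 3.41% across these groups, and the TATA box from 4.21% to 19.7%.

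By chromosome the shared share of coding-end peaks ran from 6.84% on chromosome 13 to 16.6% on chromosome 19, the chromosome of highest gene density, where 194 shared peaks lay. The genes at shared peaks were shorter, with a median extent of 18215 bp, compared with 32462 bp for genes at single-gene peaks alone and 24190 bp for all protein-coding genes.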

How the data were processed

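ATAC-seq reads of 1 hCMEC/D3 library (replicate 2, by its title) were called by the authors with MACS 2.2.7.1 in broad mode without a control, per the file headers, with a shift of -100 bp, an extension of 200 bp, q limits of 0.05 and 0.1 for broad regions, and an effective genome size of 1870000000 bp, the mouse preset. The caller kept 22188172 of 31532245 tags, at most 1 per position. Pileup is the deposited signal in tags (coverage height) and fold is the deposited enrichment of pileup over local background. The deposited −log10 p and −log10 q values were used as given. Local background was derived here from pileup and fold, taking fold as the ratio of pileup to background after 1 tag is added to each. The mouse preset and the missing control affect q and fold through the background. Per the submitters' processing notes, Bowtie2, SAMtools 1.13 and Picard were used and the builds GRCh38 and mm10 are listed; their roles and settings are not given in the sources used here. The promoter table used for strand holds no gene of chromosome 8, where 62 shared peaks lay. The peak list names no build. Human gene ends of GRCh38.p14 met 15865 peaks as deposited, and 5748 to 6106 after offsets of 5 to 50 kb, so the list was read as GRCh38. The depth is that of 1 library, which limits precision, and intervals cover counting only.

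Gene extents and promoter windows came from RefSeq tables, joined by gene identifier. A peak counted at a gene end when it overlapped the 1 kb window by at least 1 bp. Genes were named by rule: the 5 longest shared peaks, the 5 of highest pileup, the 5 of highest fold, the 5 with most genes, the 3 of lowest pileup, those of the endothelial lists, the known pairs, and the 2 of highest pileup in each family; a few items that the rule names are not reported here. Members and lists were chosen with earlier results of these data known. Assignment was tested on planted simulated peaks. Python 3.11.15, pandas 2.3.3 and scipy 1.17.1 were used. Alternatives varied the window, overlap, peak threshold and comparison peaks. RNA tables were not used, since transcripts are not paired with genes there.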

Additional observations from a re-analysis of the deposited data

How the results depend on the processing

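Of 79 alternative values, 31 moved, 4 turned direction and 44 did neither. Shares counted as moved outside the 95% interval of the main value, ratios outside the limits given with the main ratios, and counts when they differed by more than 1.5 times. By that wide tolerance the counts did not move at 1334 shared peaks and 1394 pairs (4-fold limit), 1499 and 1559 (window of 0.5 kb) or 1533 and 1580 (peak centre), against 1876 and 1935. The ratio of median fold, shared over single-gene peaks, turned to 0.989 when peaks under a −log10 q of 5 were dropped, 0.992 when peaks under 4-fold were dropped, 0.990 against single-gene peaks at starts only and 0.937 among peaks of 200 to under 500 bp. With a window of 0.5 kb the shared share of coding-end peaks was 11.01% and that of close pairs 50.3%. With 2.5 kb there were 3323 shared peaks (15.5%), 3117 pairs and 76.7% of close pairs, with ratios of 1.28 for length and 1.008 for fold. With the peak centre the shares were 10.5% and 51.2%, and an overlap of 200 bp gave 56.5% of close pairs. The q limit gave 12.9% and 56.4% with ratios of 1.17 for length and 1.23 for pileup, and the fold limit 12.6% and 44.5% with 1.17 and 1.27. Against starts only, length was 1.12 and pileup 1.18. Head to head peaks alone gave 1.30, 1.45 and, for fold, 1.127. Chosen after seeing the data, head to head against starts gave 1.18 for length and 1.08 for fold, and leaving out single-gene peaks with a long noncoding RNA end gave 1.31 and 1.40. Length bands from 500 bp up gave pileup ratios of 1.26, 1.18 and 1.14. The causes were not tested. The main ratios were 1.23 (limits 1.19 to 1.27) for length, 1.33 (1.28 to 1.38) for pileup and 1.03 (1.008 to 1.06) for fold, over peaks of 1 library. Each lower limit is the lower 95% limit of the shared median over the upper 95% limit of the single-gene median. The upper limit is the reverse, so these limits are wider than a 95% interval of the ratio. No paired analysis was possible because no result comes from a test and just 1 replicate number occurs in both kinds of library. No replicate could be left out, and orientation rests on the genes with a strand in the table.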

Other observations

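Of the 1935 gene pairs with a shared peak, 76 (3.93%) joined genes whose symbols share a root, compared with 147 of the 3037 close pairs (4.84%). By orientation the 2 shares were 3.78% and 4.08% head to head, and 5.03% and 7.88% head to tail. Tail to tail they were 2.90% and 1.82%, from 4 of 138 and 10 of 550 pairs. The 2 sets of pairs overlap only in part. The 1935 pairs have no limit on the gap, whereas the close pairs have at most 2 kb between facing ends. Of the 3037 close pairs 1832 had a shared peak, and of the 550 tail to tail 106. The shares thus do not compare close pairs with and without a shared peak.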
